A study of Mus musculus with 4 samples.

Results

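The B7 family ligands are membrane proteins with which antigen-presenting cells address receptors of the CD28 family on T cells. The members were 7 genes, Cd80, Cd86, Icosl, Cd274, Pdcd1lg2, Cd276 and Vsir, chosen by name among the 17300 Ensembl genes of the deposited table. Each matched 1 row, and no other gene had the same values in all libraries. Total RNA of dendritic cells sorted from mouse spleen had been sequenced from 2 samples titled EKO, here called KO, and 2 titled WT. The series title is about Siglec-E, an inhibitory receptor for sialic acid on myeloid cells, in graft rejection. The labels name neither the deleted gene, the strain, the age, the sex nor a treatment, and the prefix Allo, carried by every column, has no explanation in those labels. The labels do not say whether replicate samples are from different animals, so the p-values measure only the spread between these libraries. WT 1 and WT 2 differ in neutrophil markers (0.750% and 0.282% of counts) and in immediate early genes (0.0527% and 0.157%). The KO libraries differ in Y-linked RNA, as given below. Whether the spread in WT is between animals or technical was not tested. The numbers of the KO columns match neither KO title, so these libraries are named KO A and KO B.

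Cd80 (B7-1) and Cd86 (B7-2) both bind CD28, the co-stimulatory receptor of T cells, and CTLA-4, its inhibitory counterpart, and Icosl binds ICOS, a co-stimulatory receptor of helper T cells. Cd274 encodes PD-L1 and Pdcd1lg2 encodes PD-L2, the ligands of the inhibitory receptor PD-1. Cd276 (B7-H3) and Vsir (VISTA) are family members with mostly inhibitory actions on T cells, and Vsir is also found on myeloid cells in general. Resting dendritic cells carry low levels of CD80 and CD86 protein, and NF-kB, CD40 and interferon signals are known to raise several members.

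Icosl and Cd80 were the members that passed the test, both lower in KO, and the 250 bases upstream of their annotated starts are shown because these genes carry the result. The sequences are from RefSeq, build GRCm38.p6, which is older than the GRCm39 of the authors, and were matched by symbol. They run 5′ to 3′ on the strand of the gene, and capitals mark CpG dinucleotides. Cd80 lies at chr16:38458683-38458932 (plus strand) and Icosl at chr10:78069118-78069367 (plus strand).
Cd80: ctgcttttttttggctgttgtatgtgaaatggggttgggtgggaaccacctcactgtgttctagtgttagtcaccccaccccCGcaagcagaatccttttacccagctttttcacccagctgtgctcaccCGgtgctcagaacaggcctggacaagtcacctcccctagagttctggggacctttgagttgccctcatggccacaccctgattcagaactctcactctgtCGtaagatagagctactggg
Icosl: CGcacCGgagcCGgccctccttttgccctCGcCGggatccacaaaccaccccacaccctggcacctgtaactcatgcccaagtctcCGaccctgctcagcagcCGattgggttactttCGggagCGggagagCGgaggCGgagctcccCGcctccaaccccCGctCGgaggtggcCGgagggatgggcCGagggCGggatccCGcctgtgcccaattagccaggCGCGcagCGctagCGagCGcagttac
The Icosl stretch holds 23 CpG and is 68.8% G or C. The Cd80 stretch holds 3 CpG and is 52.8% G or C. Of 32851 promoters in the RefSeq table, 86.7% have fewer CpG than Icosl and 29.0% fewer than Cd80, against a median of 6. Both genes that fell thus differ in this feature. Pdcd1lg2 has 3 CpG, Vsir 9, Cd274 11 and Cd276 29. The table gave a promoter for 6 of the 7 members, and Cd86 had none. Motifs were searched on both strands from 250 bases before to 50 after the start, as GGG and TTTCC with any 2 bases between them for NF-kB, GAAA and GAAA with any 2 bases between them for IRF factors, and TTCNNNGAA, which reads alike on both strands, for STAT factors. No match lay in any of the 6 windows, while 1.63%, 3.44% and 8.30% of all promoters held them. This says only that these letters do not occur in these windows.

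After undoing the authors' transform, the normalized counts summed to 29002408 to 30952251 per library. The values were already scaled between libraries, so these sums do not show the sequencing depth. Siglece, the gene of Siglec-E, checks the labels: it was at 8.92 and 8.96 in KO and at 10.38 and 10.14 in WT (log2), and fell by 1.32 (SE 0.107, adjusted p = 0.0138, limma). Its normalized counts were 7.18-fold lower in KO, a difference of -2.82 on log2 of the count plus 1, a scale that does not compress low values. KO A stood apart in Y-linked RNA, with Ddx3y at 8.74 against 11.82 to 12.13 in the other libraries, and Eif2s3y at 8.54 against 11.12 to 11.24. The KO libraries are thus not repeats of 1 RNA sample. The KO group mixes low and high Y-linked RNA, while both WT libraries are high. The part of this in the differences below was not tested. Values of 14 pan dendritic cell genes are given next, but they do not settle the dendritic cell identity of the sort. Only 6 to 17 of all genes were at 0 in each library, so a value above 0 is no check of identity. All 14 pan dendritic cell genes were tested and none was at 0 in any library. In KO 10 of them fell, 0 rose and 4 did not pass, with a median difference of -0.50 (6 fell without WT 2). Their share of all counts was 1.46% to 1.56% in KO and 2.12% to 2.18% in WT. Of 10 erythroid markers 7 rose and 0 fell, with a median of 1.28 (2.47 on log2 of the count plus 1, and 1.94 with the filter of 2 log2 units). They held 0.0949% and 0.138% of counts in KO and 0.0139% and 0.0408% in WT. Only 2 of them rose on log2 of the count plus 1 or with robust moderation, and 4 with quantile normalization. In bulk RNA, fewer cells of a type and less RNA per cell cannot be told apart, and the part of these markers in the results below was not tested.

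Of the 7 members 6 passed the filter on low values and Cd276 did not. In KO 2 of the 6 tested fell, Cd80 and Icosl, 0 rose and 4 did not pass at an adjusted p of 0.05. Over all 11864 tested genes 6.93% were called, 2.23% lower and 4.69% higher. The median difference was -0.10 over the 6 members and 0.00 over all tested genes. Both KO libraries lay below both WT libraries in 3 members (Cd80, Icosl and Pdcd1lg2), as they did in 28.2% of all tested genes, and above them in 1 (Vsir), as in 28.1%. In either direction 56.2% of all tested genes had groups without overlap, so the lack of overlap alone says little at 2 libraries a group. Every call named here, Siglece included, was lost without KO A (0 of 11864 genes passed; 2508 had an unadjusted p under 0.05) and without KO B (3 passed, 0 of them called with all 4 libraries; 2448 had an unadjusted p under 0.05). The confidence intervals given for members are not adjusted for the number of genes.

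**Figure D1:**
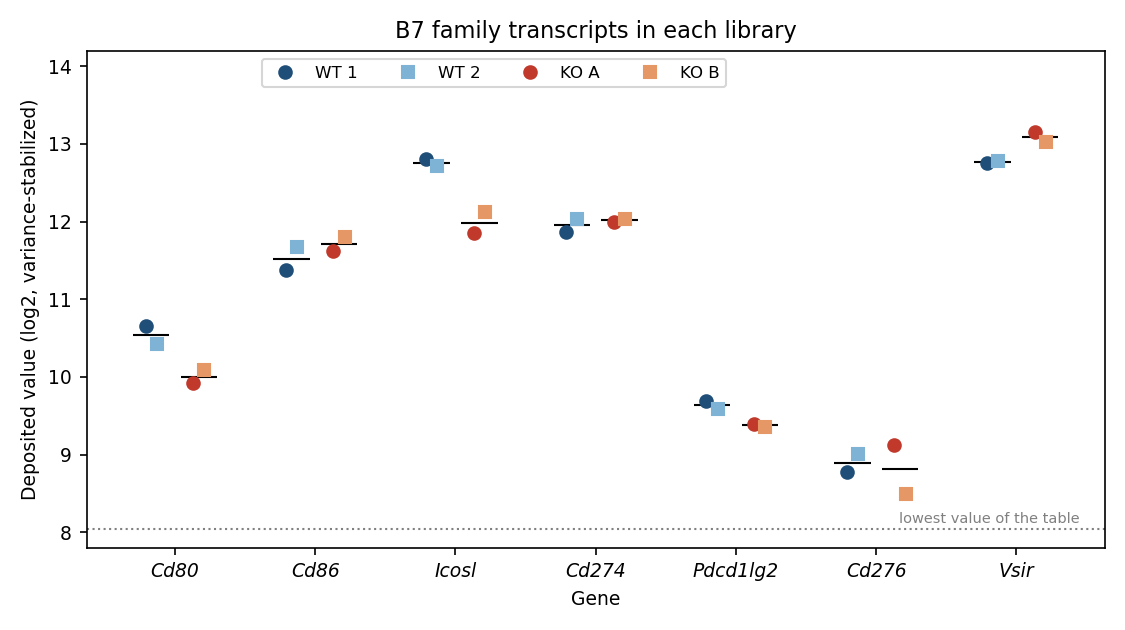
Deposited log2 value (y axis) of each B7 member (x axis) in the 4 libraries, with points for libraries and short black lines for the group means (n = 2 each). Icosl, Cd80 and Pdcd1lg2 have both KO points below both WT points, Vsir has both above, and Cd276 lies near the lowest value of the table, 8.04.

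Among the co-stimulatory ligands, Icosl had the largest difference. Its log2 values were 12.81 for WT 1 and 12.71 for WT 2, while KO A had 11.85 and KO B had 12.12. The groups did not overlap, and the gap between them was wider than the spread within either (SD 0.185 in KO and 0.0738 in WT, n = 2 each). Icosl fell by 0.78 (SE 0.109, 95% confidence interval -1.04 to -0.52, adjusted p = 0.0202, limma), the 43rd lowest difference among the 11864 tested genes. In normalized counts it was at 3196 and 3928 in KO and at 6687 and 6185 in WT, 1.81-fold lower in KO. B cells also express Icosl. The 10 listed B cell markers, 9 of them tested, held between 0.00659% and 0.0143% of counts, with WT 1 and KO B high and WT 2 and KO A low. Of these 9 markers 0 were higher and 0 lower, and their part in the Icosl values was not tested.

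For Cd80 the log2 values were 10.65 for WT 1 and 10.43 for WT 2, and 9.92 for KO A and 10.09 for KO B. WT 1 was the highest library and KO A the lowest, and the groups did not overlap. Cd80 fell by 0.54 (SE 0.115, 95% confidence interval -0.82 to -0.26, adjusted p = 0.0453, limma). Its normalized counts were 515 and 626 in KO and 1129 and 907 in WT, 1.78-fold lower in KO, or -0.83 on log2 of the count plus 1. The log2 difference is smaller than that of Icosl at almost the same count ratio, since the deposited scale compresses low values. The call was close to the threshold: with quantile normalization the difference was -0.56 (adjusted p = 0.0531). Leaving out a library gave adjusted p = 0.158 without KO A, 0.121 without KO B and 0.120 without WT 1. For Icosl the corresponding values were 0.0657, 0.0851 and 0.0202.

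Cd86, the other ligand of CD28, did not follow Cd80. It was at 11.62 and 11.80 in KO and at 11.38 and 11.67 in WT (log2), so the groups overlapped, with WT 1 the lowest library. The difference was 0.19 (SE 0.122, 95% confidence interval -0.11 to 0.48, adjusted p = 0.403, limma). The interval excludes a fall of the size seen for Cd80. The 2 genes were also set against each other within each library, per kb of exon. The ratio of Cd86 to Cd80 counts per kb was 1.95 for WT 1 and 3.06 for WT 2, and 5.19 for KO A and 4.96 for KO B. It was higher in both KO libraries, with means of 5.07 and 2.50 and thus 2.03-fold higher in KO. The exact permutation test of 2 against 2 libraries cannot go below p = 0.333 (two-sided), which is the value it gave. Which CD28 ligand transcript was more abundant did not change, since Cd86 exceeded Cd80 per kb in each of the 4 libraries.

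**Figure D2:**
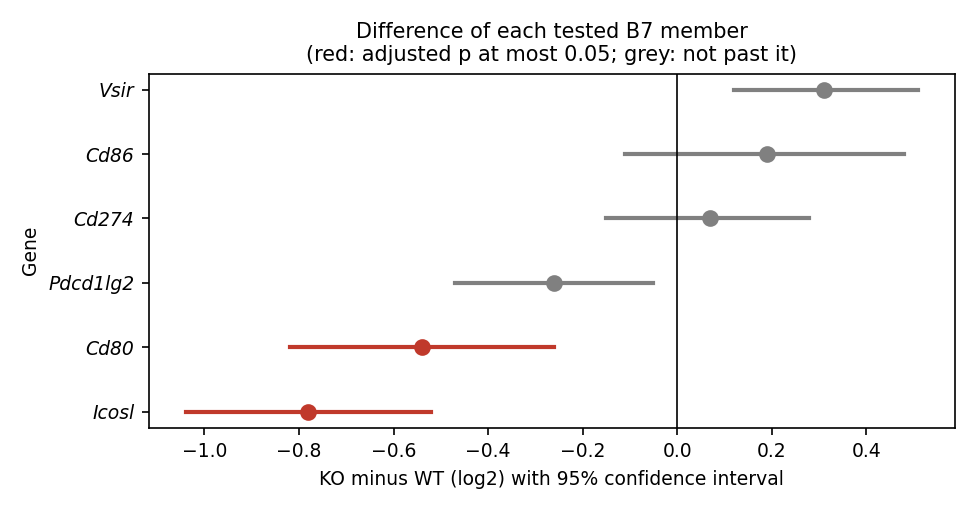
Difference KO minus WT (x axis, log2) of the 6 tested members (y axis), with 95% confidence intervals from the limma fit across all tested genes. The intervals of Icosl (-1.04 to -0.52) and Cd80 (-0.82 to -0.26) lie farthest below 0, and that of Vsir (0.12 to 0.51) lies above it without passing after adjustment.

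The ligands of PD-1 are neighbours on chromosome 19, with no other protein-coding gene starting between them in RefSeq's annotation. Cd274 was at 12.00 and 12.03 in KO and at 11.87 and 12.04 in WT (log2). Its values overlapped, and the difference was 0.07 (SE 0.0901, 95% confidence interval -0.15 to 0.28, adjusted p = 0.697, limma). The interval leaves out a fall of the size seen for Icosl, and without WT 1 the difference was -0.02, so its sign is not settled.

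Pdcd1lg2 was lower in both KO libraries, at 9.40 and 9.36 against 9.69 and 9.59 in WT (log2). The groups did not overlap. The difference of -0.26 (SE 0.0869, 95% confidence interval -0.47 to -0.05) did not pass over all genes (unadjusted p = 0.0220, adjusted p = 0.130, limma). It was a weakly expressed gene, with 251 and 239 normalized counts in KO and 382 and 337 in WT, a 1.47-fold difference in counts, or -0.55 on log2 of the count plus 1. The ratio of Cd274 to Pdcd1lg2 counts per kb was 4.57 for WT 1 and 5.92 for WT 2, and 7.77 for KO A and 8.35 for KO B. It was 1.54-fold higher in KO by the means, again with the smallest p that 2 against 2 libraries allow (exact permutation p = 0.333, two-sided).

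**Figure D3:**
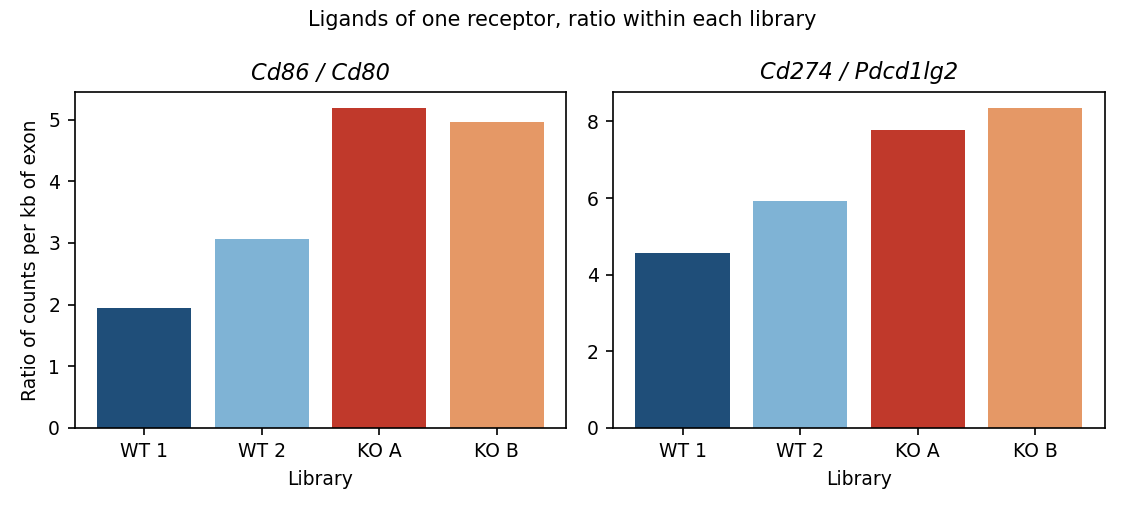
Ratio of normalized counts per kb of exon (y axis) in each library (x axis), for Cd86 over Cd80 on the left and Cd274 over Pdcd1lg2 on the right, 1 bar per library. Both ratios are higher in the KO libraries (4.96 to 5.19 and 7.77 to 8.35) than in the WT libraries (1.95 to 3.06 and 4.57 to 5.92).

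Vsir, the VISTA gene, was the tested member with the highest value in KO relative to WT. It was at 13.15 and 13.03 in KO and at 12.76 and 12.78 in WT (log2), without overlap and with a narrow spread in WT (SD 0.0119, n = 2). The difference was 0.31 (SE 0.0820, 95% confidence interval 0.12 to 0.51), with an unadjusted p of 0.00736 and an adjusted p = 0.0725 (limma), so it did not pass. Its normalized counts were 8544 and 7840 in KO and 6440 and 6521 in WT, a ratio of 1.26. Markers of other myeloid cells that express Vsir differed in the same libraries. Of 10 monocyte markers 6 rose and 0 fell, with a median of 0.66, and they held 0.560% to 0.570% of counts in KO and 0.321% to 0.375% in WT. Nr4a1, among the 6, is also counted with the immediate early genes below. The other 4 did not pass, among them Ccr2, with a difference of 0.02. Of 10 macrophage markers 4 rose (1 with the filter of 2 log2 units) and 0 fell, with a median of 0.72 (0.42 without KO B) and shares of 0.0392% to 0.0616% in KO and 0.0245% to 0.0304% in WT. Of 10 neutrophil markers 2 rose and 0 fell, and WT 2 alone was low there, at 0.282% against 0.750% to 0.816% in the other libraries (without WT 1, 10 of the 10 rose). None of these markers was at 0 in any library, which holds for nearly all genes and says little. The part of these markers in the Vsir values was not tested.

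Cd276 was left out of the test by the filter. Its mean of 8.85 (log2) lay 0.18 below the filter, while Pdcd1lg2, the tested member nearest to it, lay 0.47 above. Its values were 8.77 for WT 1, 9.01 for WT 2, 9.13 for KO A and 8.49 for KO B (log2), so the KO libraries were the highest and the lowest of the 4. In normalized counts these were 70.1, 125, 157 and 26.6. With no filter its difference was -0.08 (adjusted p = 0.849, limma), so no difference between the groups was detectable at this level.

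Per kb of exon, the mean over the 4 libraries ran from Vsir at 1463 normalized counts, Icosl at 1082, Cd274 at 980 and Cd86 at 726 down to Cd80 at 214, Pdcd1lg2 at 154 and Cd276 at 25.9. The ranges over libraries overlapped between Vsir and Icosl, between Icosl and Cd274 and between Cd80 and Pdcd1lg2, so those neighbours in the order are not separated, while Cd274 and Cd86, Cd86 and Cd80, and Pdcd1lg2 and Cd276 stood apart. With the length of the longest coding transcript in place of all exons, an alternative chosen after seeing the data, Icosl came before Vsir and Cd86 before Cd274. Among all tested genes 93.1% had a lower level per kb than Vsir and 90.0% a lower level than Icosl, against 48.4% for Cd80, 36.5% for Pdcd1lg2 and 2.55% for Cd276. Cd80 thus lay near the middle of the tested genes and Cd276 near their lower end.

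The make-up of the family was not the same in the groups, here given as shares without a test. Of the summed counts per kb of the 7 members, Icosl made up 30.6% for WT 1 and 27.5% for WT 2, and 15.6% for KO A and 18.6% for KO B. Vsir made up 38.5% and 34.2% in KO and 27.1% and 26.8% in WT. Icosl was thus the largest part in the WT libraries and Vsir in the KO libraries. With the longest coding transcript as length the shares of Icosl were 21.5% and 25.0% in KO and 39.3% and 35.7% in WT, and those of Vsir 33.4% and 29.0% in KO and 22.0% and 21.8% in WT, which leaves that order in place. The summed level itself was 4422 and 4566 counts per kb in KO and 4735 and 4860 in WT.

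Of 5 receptors of the CD28 family, 3 were tested. Cd28 rose by 0.66 (adjusted p = 0.0215, limma; 1.64 on log2 of the count plus 1), from 103 and 123 normalized counts in WT to 401 and 311 in KO. Some T cell genes and most of the listed NK cell genes were higher in the same libraries. Of 10 T cell markers 4 were tested, with 2 higher (Cd28 itself and Lck) and 0 lower and a median of 0.45, which includes Cd28. The tested marker Cd5 went the other way without passing, at 9.29 and 9.26 in KO and 9.67 and 9.49 in WT (log2). With no filter 3 of 9 were higher and the median was 0.24. Of the CD3 chains, Cd3g was at 9.41 and 9.09 in KO and 8.57 and 8.83 in WT, Cd3d at 10.37 and 10.59 in KO and 10.21 and 10.26 in WT, and Cd3e at 8.63 and 8.67 in KO and 8.68 and 8.66 in WT (log2). Of 10 NK cell markers 8 rose and 0 fell, with shares of counts of 0.0525% to 0.0642% in KO and 0.0322% to 0.0355% in WT. Their part in the Cd28 values was not tested. Btla, an inhibitory receptor related to this family that dendritic cells also express, fell by 0.56 (adjusted p = 0.0213, limma), from 4509 and 4771 counts to 3078 and 2916. Icos differed by -0.28 (adjusted p = 0.213, limma). Of 7 further B7-like and butyrophilin genes only Btnl9 was tested, at -0.11 (adjusted p = 0.556, limma). Of 4 other partners of B7 ligands, among them the VISTA partner Selplg, 0 passed, with a median of 0.04 (1 was lower without WT 2).

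Of 8 genes that act on B7 proteins after translation, 1 rose and 0 fell, with a median of -0.05. Marchf8, a membrane ubiquitin ligase for which CD86 is a known substrate, rose by 0.86 (SE 0.159, adjusted p = 0.0331, limma), or by 1.41 on log2 of the count plus 1. KO B was the highest library at 10.77, KO A was at 10.29, and WT was at 9.65 and 9.69 (log2). Marchf1, the related ligase that removes CD86 and MHC class II from the surface of dendritic cells, differed by -0.25 (adjusted p = 0.104), and Cd83, which opposes it, by -0.05 (adjusted p = 0.823). Cmtm6, which keeps PD-L1 at the cell surface, differed by 0.23 (adjusted p = 0.134). No protein was measured in these samples.

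Of 11 transcription factors known to act on B7 genes, 1 fell and 0 rose, with a median of 0.04. Relb, the NF-kB subunit tied to dendritic cell maturation, fell by 0.71 (SE 0.0939, adjusted p = 0.0191, limma), from 12.44 and 12.50 in WT to 11.67 and 11.86 in KO (log2). Rel, another NF-kB subunit, differed by 0.04 (adjusted p = 0.816). Irf1, through which interferon raises Cd274, differed by 0.14 (adjusted p = 0.553). Of 13 receptors and kinases upstream, 2 fell and 0 rose, with a median of -0.09; with the filter of 2 log2 units or with robust moderation 2 also rose (Jak1 by 0.45 and Csf2ra by 0.34 in both). Cd40, whose engagement by T cells raises CD80 and CD86, fell by 0.69 (SE 0.0840, adjusted p = 0.0162, limma), and Jak2, a kinase of the interferon gamma receptor, fell by 0.48 (adjusted p = 0.0279; adjusted p = 0.0760 and a difference of -0.45 without WT 1).

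**Figure D4:**
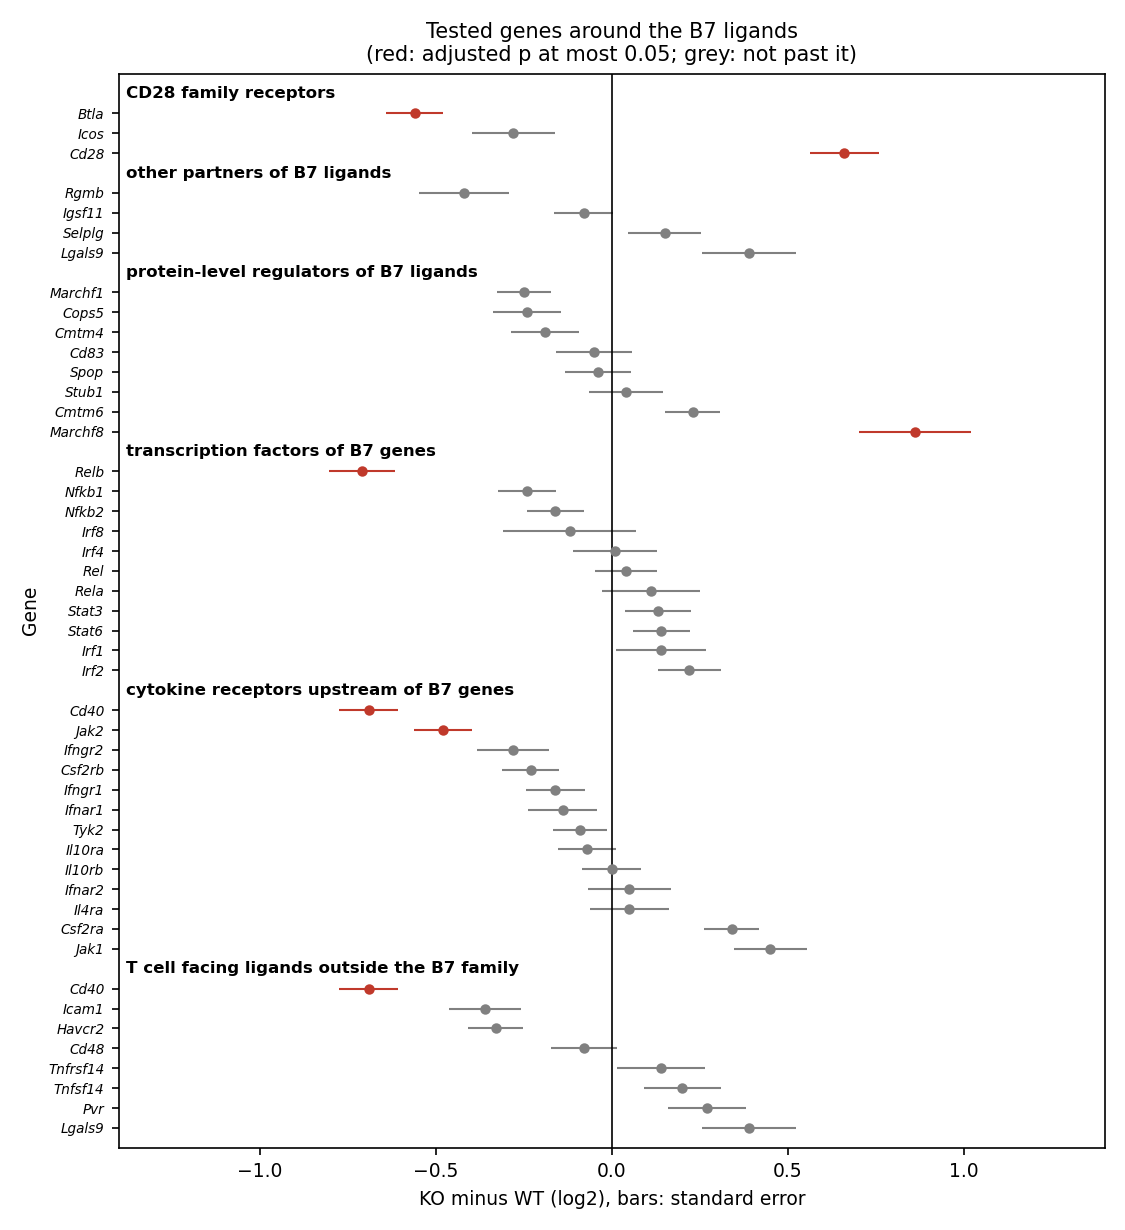
Difference KO minus WT (x axis, log2, bars are standard errors from limma) for the tested genes of 6 lists around the B7 ligands (y axis, grouped by list). Red points passed an adjusted p of 0.05: Btla, Cd28, Marchf8, Relb, Cd40 (in 2 lists) and Jak2; the other genes are grey.

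T cell facing molecules outside the B7 family, some of them receptors, gave 0 higher and 1 lower of 8 tested, with 13 listed. Their median was 0.03, and the 1 lower was Cd40, already counted above among the receptors upstream. Icam1, the adhesion ligand of LFA-1, differed by -0.36 (adjusted p = 0.0884, limma), and Havcr2 (TIM-3) by -0.33 (adjusted p = 0.0585), which passed with quantile normalization and gave 2 lower. Of 7 signalling genes downstream of CD28 family receptors 2 rose, Lck by 0.77 (adjusted p = 0.0206; 1.20 on log2 of the count plus 1) and Prkcq by 0.52 (adjusted p = 0.04999), both kinases of T cells, and 0 fell, beside the NK and T cell marker values given above. Prkcq did not pass with quantile normalization (adjusted p = 0.0675), with median centring (0.0574), with log2 of the count plus 1 (0.0548) or without WT 1 (0.132).

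Of 10 markers of mature or migratory dendritic cells, a state in which CD80 and CD86 are high, 9 were tested, 2 fell (Relb and the amino acid oxidase gene Il4i1) and 0 rose, with a median of -0.33 (-0.66 on log2 of the count plus 1). The chemokine receptor gene Ccr7, which defines that state, was at 10.70 and 11.23 in KO and 10.70 and 10.97 in WT (log2), and its difference of 0.13 did not pass (adjusted p = 0.710). Conventional DC1 markers gave 3 lower and 0 higher of 10 (7 lower without WT 1 and 1 without WT 2), DC2 markers 2 lower and 1 higher of 9 tested (2 higher without WT 1), and plasmacytoid markers 0 of 8 in either direction. The KO libraries differed in the plasmacytoid share of counts, 0.113% for KO A and 0.0601% for KO B, against 0.065% and 0.081% in WT. The plasmacytoid median of 0.18 became -0.20 without KO A and 0.54 without KO B. The fall of Icosl and Cd80 stood beside the median of -0.50 of the pan dendritic cell list, in which Itgax (CD11c) fell by 0.73 (adjusted p = 0.0206) and Flt3 by 0.73 (adjusted p = 0.0147). Immediate early genes were higher in KO, with 8 of 12 higher (5 with robust moderation) and 0 lower and a median of 2.08 (1.34 without WT 1); their share of counts was 0.0527% for WT 1 and 0.157% for WT 2, and 0.399% for KO A and 0.474% for KO B.

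Genes whose pattern over the 4 libraries was most like that of a member were found by Euclidean distance between values centred on each gene's mean, without a test. The nearest to Icosl was Cdhr3, at a distance of 0.0433, and the nearest to Cd80 was Chn2, at 0.0503. These distances are on the deposited log2 scale, which compresses low values. Cdhr3 was weakly expressed, at 8.55 and 8.83 in KO and 9.48 and 9.43 in WT (log2), far below Icosl. A like pattern on this scale therefore does not mean a like ratio of counts for Cdhr3 and Icosl. Foxj2 was nearest to Cd86 at 0.0198, Gak to Cd274 at 0.0143, Elac1 to Pdcd1lg2 at 0.00978 and Eif4g2 to Vsir at 0.0157. With 4 libraries many genes share such a pattern, and none of the nearest genes was another member.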

How the data were processed

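Total RNA of sorted splenic dendritic cells was read in 2 KO and 2 WT libraries, with a stranded kit for small amounts of total RNA, per the labels' protocols. The authors deposited log2 values of 17300 genes, scaled between libraries and variance-stabilized. Salmon 1.10.1, DESeq2 and GRCm39 are named, with no role or order, per the submitters' processing notes; their annotation is not given in the sources used here, nor how they filtered genes. Values near the shared minimum of 8.04 are compressed. Undoing the transform from that minimum gave normalized counts; the depth in reads is unknown. Symbols, exon lengths and transcript lengths came from GENCODE M21 (17289 identifiers matched, 11 did not; Marchf1 and Marchf8 are March1 and March8 there).

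Genes with a mean at least 1 log2 unit above the minimum were fitted in limma 3.58.1 (R 4.3.3) with an intensity trend, two-sided, with Benjamini-Hochberg adjustment over all of them (threshold 0.05; 6.48 degrees of freedom). The fit was tested on simulated data. The members, gene lists and alternatives were chosen with earlier results of these data known. All 7 members are described; in each list up to 4 called genes, those of smallest p, were named, and others by role where their value bears on a member. Genes near a member in pattern were the 2 closest, of which the first is given. No gene sets were tested. A gene of the transcription factor list is not reported here and is left out of its counts. CpG counts upstream of the members were added after their values were seen.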

Additional observations from a re-analysis of the deposited data

How the results depend on the processing

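With 2 libraries a group, the calls depended on single libraries. Members called, 2 in all, ranged from 0 to 2 when 1 library was left out, and 1 remained with quantile normalization, where Cd80 gave -0.56 (adjusted p = 0.0531). Over all genes 822 were called, and between 0 and 820 with 1 library left out: 0 without KO A (2508 at an unadjusted p under 0.05, 3 of them members) and 3 without KO B (2448, 3 of them members). A group of 1 library is assumed to vary like the other. Leaving out 1 library gave -0.65 to -0.43 for Cd80, -0.91 to -0.65 for Icosl and -0.02 to 0.15 for Cd274, whose sign turned without WT 1. It gave 0.04 to 0.33 for Cd86, -0.31 to -0.21 for Pdcd1lg2 and 0.26 to 0.37 for Vsir. Besides these, no filter, a filter of 2 log2 units (which drops Pdcd1lg2), median centring, log2 of the count plus 1, no trend and robust moderation changed no member's call or direction. The cause of the lost calls was not tested. On log2 of the count plus 1, the KO minus WT difference of Cd86 minus Cd80 was 1.05 in place of 0.73, and that of Cd274 minus Pdcd1lg2 was 0.63 in place of 0.33. Without KO A and without KO B, Siglece, Cd28, Btla, Marchf8, Relb, Cd40, Jak2, Lck and Prkcq also lost their calls in the direction reported. No paired analysis was possible because the KO columns carry no number shared with the WT columns.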
